A study of Bos taurus and Ovis aries and Capra hircus with 27 samples.

Results

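The small GTPases of the goat whose deposited protein carries the 7 residues WDTAGQE were examined in heart, liver and kidney. These residues are the start of switch II, the stretch of a small GTPase that changes shape when bound GTP is hydrolysed. Of 20832 goat gene models without a copy suffix, 17138 had a deposited protein, and 51 of those (0.298%) carried the motif. The 42 of them called Rab-type or Ran-type below are described here. The study series holds 27 messenger RNA libraries of 3 species (cattle, goat and sheep), with 3 libraries for each of 9 groups. The goat libraries used here came from heart, liver and kidney of indigenous animals of about 3 years, with 3 libraries of each tissue. Per the study's methods unrelated adult females were sampled, and the labels name no treatment or allele for any group. Expression was measured as FPKM (fragments mapped per kilobase of transcript, scaled to the mapped fragments of the library), which is a level per length, so that models can be compared with each other.

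Small GTPases switch between a GDP-bound and a GTP-bound state, and in the GTP-bound state they recruit effector proteins to a membrane or to other structures. Rab proteins direct the formation, movement and fusion of transport vesicles, and Ran drives transport through the nuclear pore. Most Rab proteins are anchored in membranes through lipid groups attached to cysteines at their end, whereas Ran is not.

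The deposited identifiers are not paired with gene names: 18 of the 42 models carried a cattle protein identifier, 22 a human one, and 2 were predicted models. The models are therefore described by type, protein length and genomic scaffold of the goat assembly CHIR_1.0. Models with WDTAGQEKFGG, the form of Ran, were called Ran-type (3 models). The other 39 of the 42 were called Rab-type as the remainder, with no Rab criterion of their own. The label given to this set also names Ras. In Ras itself a leucine stands in place of the tryptophan, and the 6 goat models with LDTAGQE were outside the rule.

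The proteins were between 171 and 742 residues long with a median of 210.5, and 38 of the 42 had 160 to 280 residues. The phosphate-binding loop (G, any 4 residues, GK and S or T) was present in 33 of the 42 models, against 3.95% of all deposited goat proteins searched. The 9 models without it all lacked a methionine at their start, as did 19 of the 42 models in all. An incomplete gene model was not told apart from a true absence of the loop, and the lengths are those of the models. The guanine-binding motif (N or T, K, any residue, D) was found in 38, against 10.6% of all. Of the Rab-type models, 32 ended with at least 2 cysteines among the last 5 residues and 4 had a single cysteine at the fourth residue from the end. None of the 3 Ran-type models had a cysteine among its last residues. A run common in Rab proteins after the switch (Y or F, then Y, F or I, then RG and A or S) was present in 23 of the 39 Rab-type models and in no Ran-type model. A single coding exon was annotated for 1 of the 39 Rab-type models. The 42 models lay on 39 scaffolds, 3 of which held 2 each.

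The summed FPKM of all goat models was between 574638 and 828807 per library, and replicates of a tissue correlated with r between 0.952 and 0.990 across genes. Median ratio size factors, which show where most genes of a library lie against the other libraries, were 0.774 to 0.941 in heart, 0.648 to 0.904 in liver and 1.29 to 1.51 in kidney. Over all 13634 tested genes the median log2 fold change of heart against kidney was -0.55 as deposited and -0.04 after median ratio scaling, and that of liver against kidney was -0.69 and -0.01. Directions against kidney are therefore given under both. The tables hold no read counts, so depth is unknown and no counting interval can be given. Gene names being absent, the labelled tissues were not checked against marker genes.

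Most of the small GTPase models were expressed in all 3 tissues. Of the 42 models, 38 exceeded 0.5 FPKM in at least 3 libraries and were tested, 26 exceeded it in all 9 libraries, and 17 exceeded 10 FPKM in all 9. The median of the mean FPKM was 21.7 over the 38 tested models and 9.24 over all tested genes. Together the 42 models took 0.157% ± 0.017 of the summed FPKM in heart, 0.168% ± 0.019 in liver and 0.290% ± 0.068 in kidney (SD, n = 3 each). The single libraries were at 0.139%, 0.161% and 0.172% in heart, at 0.150%, 0.166% and 0.188% in liver, and at 0.215%, 0.308% and 0.347% in kidney. The kidney libraries thus lay above all heart and liver libraries, which overlapped each other. Over all tested genes the median log2 fold change also lay toward kidney, at -0.55 for heart and -0.69 for liver against kidney. Whether the share of the models in kidney exceeds this general shift was not tested. When the 10 genes with the highest level of each tissue were left out of the total, the shares were 0.220% in heart, 0.203% in liver and 0.338% in kidney. A smaller number of cells of a type and less RNA in each cell cannot be told apart in bulk tissue.

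**Figure D1:**
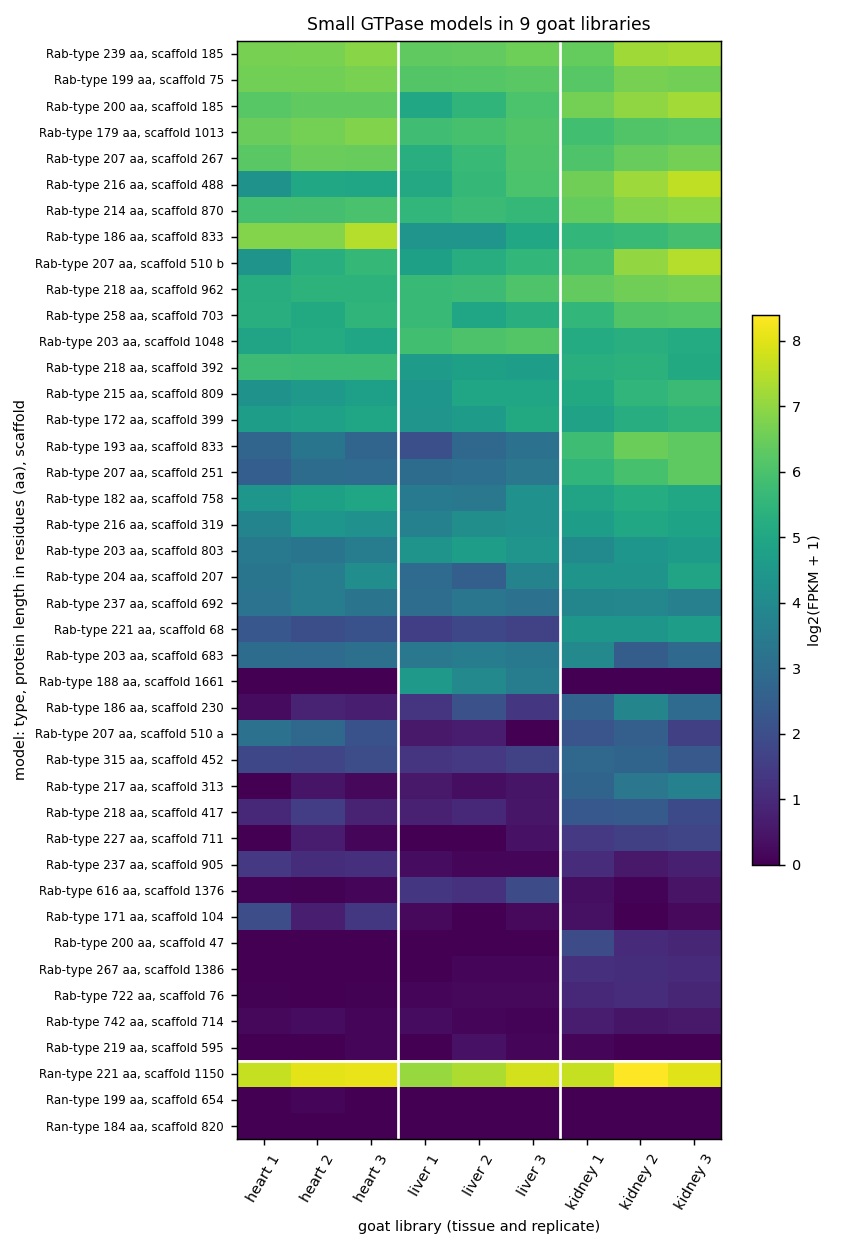
Level of each of the 42 models (rows, by type and then by mean level) in each of the 9 goat libraries (columns), as log2(FPKM + 1) on the colour scale. White lines separate the tissues and the Rab-type from the Ran-type models, and the last row is the 1 model listed at 0 in all 9 libraries.

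The 8 models with the highest mean FPKM were the 221-residue Ran-type model on scaffold 1150 (227) and 7 Rab-type models. The Rab-type models were those of 239 residues on scaffold 185 (107), of 199 residues on scaffold 75 (86.7), of 200 residues on scaffold 185 (83.3), of 179 residues on scaffold 1013 (75.3), of 207 residues on scaffold 267 (73.0), of 216 residues on scaffold 488 (72.2) and of 214 residues on scaffold 870 (71.5). All 8 had at least 18.5 FPKM in each of the 9 libraries, so that none of the highest models was confined to 1 tissue. As deposited, the mean was highest in kidney for 26 of the 38 tested models, in heart for 7 and in liver for 5. The matching split over all tested genes was not counted, and their median also lay toward kidney (log2 fold change of heart against kidney -0.55).

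Heart and liver were the tissues with the fewest differences. With limma on log2(FPKM + 1) and an adjusted p under 0.05, 14 of 38 models differed between them, where 49.2% of all tested genes did. Of these, 9 were higher in heart (29.6% of all genes were) and 5 in liver (19.6%), and all 14 kept their direction and their call after median ratio scaling and after quantile normalization. The split was, however, 9 higher in heart (27.0% of all genes) and 9 higher in liver (26.8%) after median ratio scaling. How many of all tested genes kept their own call was not counted. The median log2 fold change of heart against liver was 0.16 over the models and 0.10 over all genes, and after median ratio scaling it was 0.03 and -0.04. The count was 9 without heart replicate 3 (5514 of 13302 genes) and 9 without liver replicate 2 (5444 of 13268). Those higher in heart were 5 without heart replicate 3 (3140 genes). Those higher in liver were 2 without liver replicate 2 (2025 genes) and 2 without liver replicate 3 (1988 of 13261).

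Between heart and kidney 26 of 38 models differed (63.2% of all genes), 21 of them higher in kidney (45.3% of all genes) and 5 higher in heart (17.9%). The count of 26 was 17 of 34 without kidney replicate 2 (7135 of 13079 genes) and 16 of 34 without kidney replicate 3 (7297 of 13083). In each of these fits 13 were higher in kidney (4869 and 5088 genes). Those higher in heart were 2 without heart replicate 1 (2031 of 13301 genes) and 1 without heart replicate 2 (1917 of 13304). They were 2 without heart replicate 3 (1898 of 13302) and 3 without kidney replicate 3 (2209 of 13083). Between liver and kidney 30 differed (65.0%), 27 of them higher in kidney (51.6%) and 3 higher in liver (13.4%), of which 1 was left without any one of the liver libraries. The median log2 fold change was -0.69 for heart against kidney and -0.82 for liver against kidney. The direction of these medians was kept after median ratio scaling (-0.09 and -0.23) and after quantile normalization (-0.36 and -0.49), but the split of the calls was not. After median ratio scaling 12 models were higher in kidney than in heart (29.1% of all genes) and 10 were higher in heart (29.0%). In the same fit 14 were higher in kidney than in liver (25.3%) and 7 were higher in liver (26.6%). After quantile normalization 15 models were higher in kidney than in heart (30.0% of all genes) and 6 higher in heart (28.0%), and 20 were higher in kidney than in liver (30.8%) and 4 higher in liver (22.4%).

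**Figure D2:**
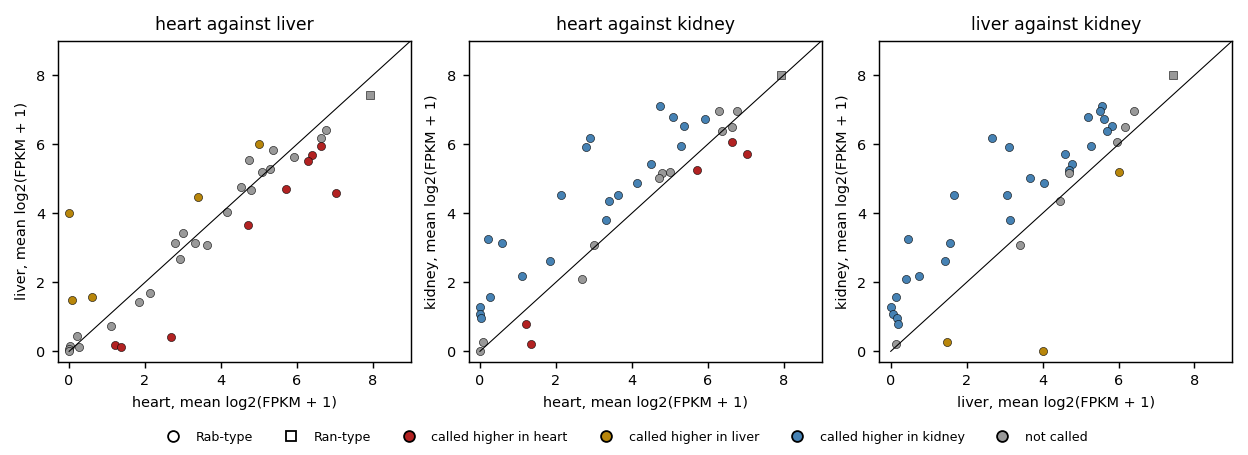
Mean log2(FPKM + 1) over 3 libraries of each of the 38 tested models in pairs of goat tissues, with the line of equal level. Filled colours mark models with an adjusted p under 0.05 as deposited. Most coloured points in the panels with kidney lie on the kidney side (21 against 5 with heart, and 27 against 3 with liver). All tested genes lean the same way (45.3% against 17.9%, and 51.6% against 13.4%). After median ratio scaling the models split 12 against 10 and 14 against 7.

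Elevation in a tissue meant a called difference from each of the other tissues, upward in both. Of the 38, 20 were elevated in kidney (34.2% of all tested genes), 5 in heart (14.5%) and 3 in liver (9.59%). After median ratio scaling 9 were elevated in kidney (16.6% of all genes), 7 in heart (19.5%) and 4 in liver (15.4%), and after quantile normalization 13, 6 and 4 (19.4%, 19.7% and 13.0%). Some of these counts follow from the filter: 7 of the 38 models exceeded 0.5 FPKM in 1 tissue alone (4 in kidney, 2 in liver, 1 in heart) and could be tested only because they were high there. Over the 28 models above 0.5 FPKM in over 80% of the libraries, the filter of the study, 15 were elevated in kidney (34.4% of the genes in that fit), 3 in heart (12.8%) and 1 in liver (6.15%).

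Single libraries weighed on these counts. The number elevated in kidney was 11 of 34 tested models without kidney replicate 2 (3430 of 13079 genes) and 11 of 34 without kidney replicate 3 (3610 of 13083). With all libraries it was 20 of 38 (4669 of 13634 genes). The 4 models that passed the filter through kidney alone were not tested in these reduced fits. The number elevated in heart was 2 without heart replicate 1 (1570 of 13301 genes) and 1 without heart replicate 2 (1493 of 13304). It was 2 without heart replicate 3 (1465 of 13302) and 3 without kidney replicate 3 (1819 of 13083). The number elevated in liver was 1 without any one of the liver libraries, because the other 2 models then no longer passed the filter on low values.

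The models elevated in kidney were led by a 193-residue Rab-type model with a double cysteine end (GOAT_ENSBTAP00000022947, scaffold 833, bases 3228504 to 3275771, plus strand). Its FPKM was 5.59, 8.68 and 5.65 in heart, 3.16, 6.04 and 7.95 in liver, and 54.3, 89.0 and 77.6 in kidney. The kidney libraries lay far above the others, while heart and liver overlapped. The log2 fold change was -3.28 ± 0.32 (SE) for heart against kidney (limma, adjusted p = 2.31e-05) and -3.51 ± 0.32 for liver against kidney (adjusted p = 1.53e-05).

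A 207-residue Rab-type model with a single cysteine end (GOAT_ENSP00000312734, scaffold 251, bases 1382655 to 1447000, minus strand) behaved in the same manner. It had 4.63, 6.82 and 6.61 FPKM in heart, 6.79, 7.44 and 9.11 in liver, and 44.5, 61.4 and 78.3 in kidney. Heart and kidney differed by -3.13 ± 0.25 on the log2 scale (limma, adjusted p = 5.83e-06), liver and kidney by -2.80 ± 0.25 (adjusted p = 1.23e-05). A 221-residue Rab-type model on scaffold 68 stood at 3.79, 3.03 and 3.33 FPKM in heart and 1.96, 2.56 and 2.10 in liver, against 20.8, 20.8 and 25.3 in kidney. Its groups with kidney were also fully apart, with log2 fold changes of -2.41 ± 0.17 against heart and -2.86 ± 0.17 against liver (limma, adjusted p = 3.38e-06 and 1.22e-06). All 3 of these models stayed elevated in kidney under both other scalings and without any 1 library.

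Among the next models, a 216-residue Rab-type model on scaffold 488 had 18.5, 31.9 and 29.5 FPKM in heart, 32.1, 47.0 and 63.9 in liver, and 94.5, 142 and 190 in kidney. All libraries of kidney were above those of liver, and the highest heart library lay just below the lowest liver library. Its log2 fold change was -2.35 ± 0.34 for heart against kidney and -1.55 ± 0.34 for liver against kidney (limma, adjusted p = 0.000286 and 0.00317).

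The second of the 207-residue models on scaffold 510, at bases 882399 to 901613, had 19.5, 38.3 and 47.1 FPKM in heart, 26.4, 36.3 and 46.3 in liver, and 60.9, 128 and 173 in kidney. Kidney was apart from both tissues in every library (log2 fold change of liver against kidney -1.61 ± 0.43, limma, adjusted p = 0.0092). After median ratio scaling this difference was -0.73 with an adjusted p of 0.112. The 186-residue Rab-type model on scaffold 230 was low in heart (0.176, 0.797 and 0.630 FPKM), higher in liver (1.43, 3.25 and 1.49) and highest in kidney (5.28, 13.1 and 6.72), with no overlap between the groups. Its call against liver was also lost after median ratio scaling (-0.86, limma, adjusted p = 0.0548) and after quantile normalization (-0.81, adjusted p = 0.0672).

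A further group was almost confined to kidney at low levels. A 217-residue Rab-type model on scaffold 313 had 5.55, 9.09 and 11.9 FPKM in kidney, and at most 0.386 in heart and 0.488 in liver. The 200-residue Rab-type model on scaffold 47 was listed at 0 in all heart and liver libraries and at 2.86, 0.999 and 0.867 FPKM in kidney. The models of 267 residues on scaffold 1386 (1.06 to 1.20 FPKM in kidney, at most 0.082 elsewhere) and of 722 residues on scaffold 76 (0.849 to 1.07 in kidney, at most 0.133 elsewhere) lay near 1 FPKM. The last pair was chosen after the values were seen. These 4 models passed the filter through their kidney libraries alone, and none of them could be tested when 1 kidney library was left out. The 227-residue model on scaffold 711 (1.63, 1.99 and 2.38 FPKM in kidney) reached 0.591 in 1 heart library and was listed at 0 in 1 heart and 2 liver libraries. The 218-residue model on scaffold 417 was at 0.437 to 1.91 FPKM in heart and liver and at 3.91, 4.16 and 2.70 in kidney, and its difference from heart of -1.09 ± 0.23 (limma, adjusted p = 0.00292) was not called after median ratio scaling (-0.61, adjusted p = 0.0618).

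For the other 8 models elevated in kidney, the smaller of the differences from heart and liver was between 0.48 and 0.90 on the log2 scale. Of all 21 models higher in kidney than in heart, 12 kept their call after median ratio scaling, 7 kept the sign without the call, and 2 changed sign without a call in the other direction. Of the 27 higher in kidney than in liver, these numbers were 14, 6 and 7. The 4 models that passed the filter through kidney alone kept their calls in both comparisons. Over all tested genes the number higher in kidney also fell, from 6181 to 3962 against heart and from 7035 to 3455 against liver. How many of those genes kept their own call was not counted.

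**Figure D3:**
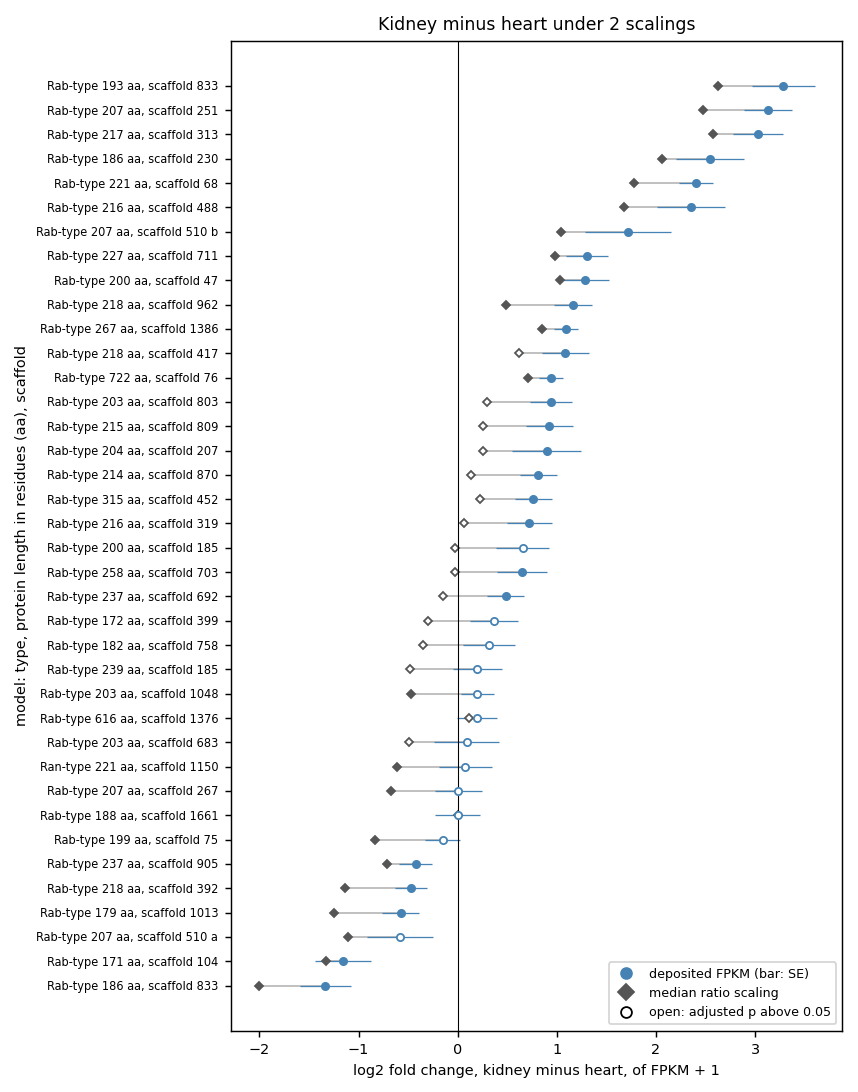
Log2 fold change of FPKM + 1 between kidney and heart (positive is higher in kidney) for the 38 tested models, as deposited (circles, bars are SE) and after median ratio scaling (diamonds). Open symbols have an adjusted p above 0.05, and the shift to the left with scaling leaves 12 of the 21 models called higher in kidney. Over all tested genes 6181 were called higher in kidney as deposited and 3962 after scaling.

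Liver held 3 elevated models, all Rab-type. A 188-residue model without a cysteine at its end (GOAT_ENSBTAP00000040290, scaffold 1661, bases 285224 to 298855, minus strand) had 22.0, 14.6 and 10.7 FPKM in liver and was listed at 0 in all heart and kidney libraries. No fold change is given against groups at 0. It was the only tested model above 10 FPKM in 1 tissue and at 0 in all libraries of both others.

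A 616-residue model (GOAT_ENSBTAP00000028993, scaffold 1376, bases 159740 to 244500, plus strand), well beyond the usual length of a Rab protein, had 1.51, 1.29 and 2.84 FPKM in liver. In heart it had 0.061, 0.028 and 0.084 FPKM, and in kidney 0.241, 0.056 and 0.353, so that the tissues did not overlap with liver. The log2 fold change of FPKM + 1 was -1.41 ± 0.20 for heart against liver and 1.21 ± 0.20 for liver against kidney. At these levels the added 1 makes it smaller than the ratio of the FPKM values. The mean FPKM was 1.88 in liver, 0.058 in heart and 0.216 in kidney. Both of these models passed the filter through liver alone, so their values are a description and no p is given.

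The 203-residue Rab-type model on scaffold 1048 was expressed in all tissues and highest in liver, at 57.2, 64.8 and 69.2 FPKM. It had 28.6, 34.8 and 30.2 FPKM in heart and 35.0, 37.5 and 34.9 in kidney. Its liver values lay above all others without overlap (log2 fold change -1.01 ± 0.17 for heart against liver and 0.81 ± 0.17 for liver against kidney, limma, adjusted p = 0.00079 and 0.00219), and the call was kept without any 1 library and under both scalings. The difference between liver and kidney was 1.69 after median ratio scaling (adjusted p = 1.3e-05).

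In heart, 5 Rab-type models were elevated, and all 5 stayed so under both scalings. First in the same ranking on log2(FPKM + 1) was a 186-residue model with a double cysteine end (GOAT_ENSBTAP00000013671, scaffold 833, bases 2485267 to 2494896, plus strand), on the same scaffold as the model that led in kidney. It had 113, 113 and 175 FPKM in heart, 19.8, 19.5 and 31.0 in liver, and 45.6, 49.9 and 59.2 in kidney. The tissues were fully apart in the order heart, kidney, liver. The log2 fold change was 2.46 ± 0.25 for heart against liver (limma, adjusted p = 3.73e-05), 1.33 ± 0.25 for heart against kidney (adjusted p = 0.00146), and -1.13 ± 0.25 for liver against kidney (adjusted p = 0.00367). The last of these was not called after median ratio scaling (-0.25, adjusted p = 0.307). The elevation in heart was kept without any 1 library.

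The 171-residue model on scaffold 104 (GOAT_ENSP00000393414, bases 1337617 to 1342459, plus strand) was low, at 2.99, 0.636 and 1.57 FPKM in heart, 0.152, 0 and 0.157 in liver, and 0.302, 0 and 0.162 in kidney. It passed the filter through heart alone, so no p is given, and its heart libraries were widely spread (log2 fold change 1.22 ± 0.28 against liver and 1.16 ± 0.28 against kidney). The added 1 makes these differences smaller than the ratios of the FPKM values. The 179-residue model on scaffold 1013 had 86.9, 99.0 and 110 FPKM in heart, above 54.9 to 68.0 in liver and 56.9 to 72.6 in kidney. The 218-residue model on scaffold 392 had 52.7, 51.9 and 51.1 FPKM in heart, against 24.1 to 26.0 in liver and 33.2 to 41.1 in kidney.

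The differences of this pair from kidney were 0.58 ± 0.18 and 0.47 ± 0.16 on the log2 scale as deposited (limma, adjusted p = 0.0215 and 0.0261), and 1.25 and 1.14 after median ratio scaling (adjusted p = 5.41e-05 and 0.000528). As deposited, the elevation of the 179-residue model was lost without heart replicate 2 (adjusted p = 0.0645 against kidney), heart replicate 3 (0.0878) or kidney replicate 1 (0.0643). That of the 218-residue model was lost without heart replicate 1 (0.0663), 2 (0.0753) or 3 (0.0686) or kidney replicate 3 (0.101). The 237-residue model on scaffold 905 (1.61, 1.14 and 1.24 FPKM in heart) was elevated by 0.42 ± 0.17 against kidney (adjusted p = 0.0490), and this was lost without any library other than kidney replicate 1 (0.0593 to 0.178).

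**Figure D4:**
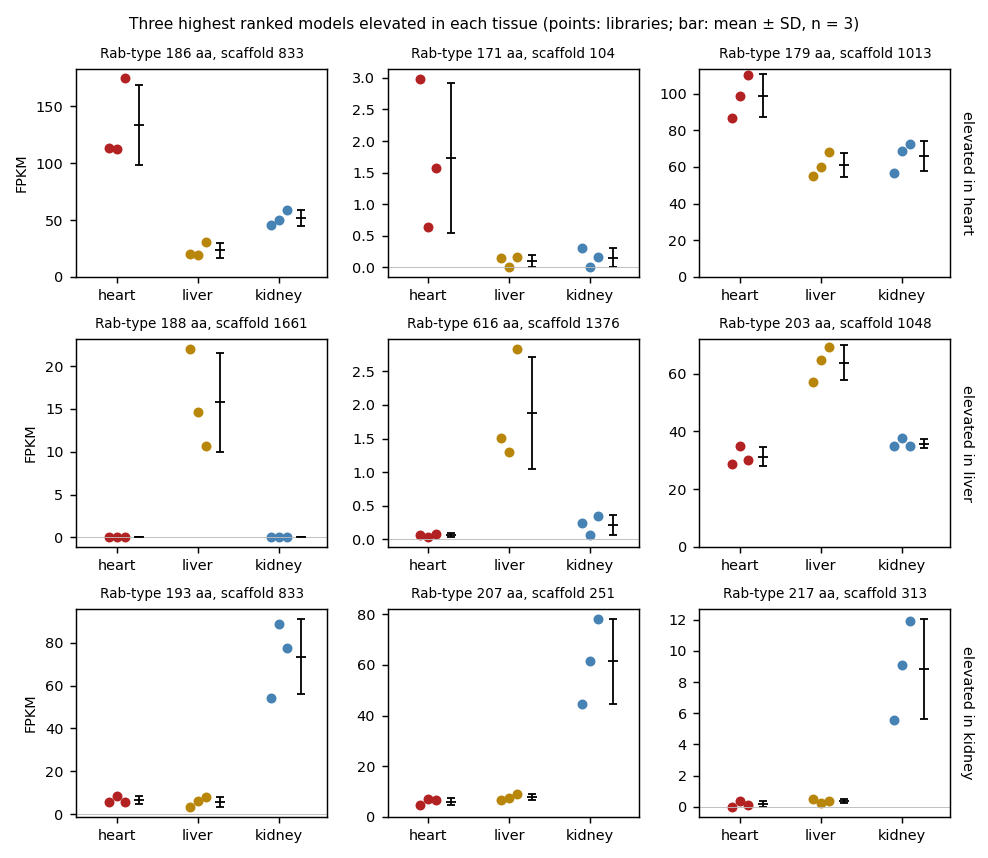
FPKM of the 3 models in each tissue with the largest difference from both other tissues, on linear axes of their own. Points are single libraries and the bar beside them is the mean with its SD (n = 3). The 188-residue model on scaffold 1661 is listed at 0 in all heart and kidney libraries.

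Of the 3 Ran-type models only that of 221 residues on scaffold 1150 was tested, and without the replicate block it was called in no contrast as deposited. Its FPKM was 198, 265 and 272 in heart, 137, 162 and 225 in liver, and 201, 334 and 250 in kidney. The ranges of all 3 tissues overlapped, and the log2 fold changes were 0.50 ± 0.27 for heart against liver, -0.08 ± 0.27 for heart against kidney and -0.58 ± 0.27 for liver against kidney (limma, adjusted p = 0.148, 0.823 and 0.0815). After median ratio scaling it was higher in heart than in kidney (0.61, adjusted p = 0.0162), and after quantile normalization it was lower in liver than in kidney (-0.75, adjusted p = 0.0247). Liver against kidney was also called with the replicate block (adjusted p = 0.0313), which pairs same-numbered libraries. The other 2 Ran-type models, of 199 residues on scaffold 654 and of 184 residues on scaffold 820, were predicted models 96.8% and 93.5% identical in protein to it. The 199-residue model had 0.120 FPKM in heart replicate 2 and was listed at 0 elsewhere, and the 184-residue model was listed at 0 in all 9 libraries.

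Besides this Ran-type model, 4 Rab-type models were called in no contrast (5 of 38 in all, and 13.7% of all tested genes). They were those of 239 residues on scaffold 185 (80.5 to 157 FPKM over the 9 libraries), of 199 residues on scaffold 75 (69.8 to 103), of 172 residues on scaffold 399 (19.8 to 43.2) and of 203 residues on scaffold 683 (4.55 to 14.3). With the replicate block only the model on scaffold 683 stayed without a call (1 of 38, and 8.73% of all genes). In that fit the models of 239 residues on scaffold 185 and of 172 residues on scaffold 399 were lower in liver than in kidney (-0.54 and -0.48, limma, adjusted p = 0.0410 and 0.0207). The model on scaffold 75 was then higher in heart than in liver (0.46, adjusted p = 0.0398). Under median ratio scaling the one on scaffold 75 was called lower in kidney than in heart (0.83, limma, adjusted p = 0.00199) and than in liver (0.59, adjusted p = 0.0138), and that on scaffold 683 lower in kidney than in liver (1.11, adjusted p = 0.0287). Without kidney replicate 1 each of the 34 models then tested with limma was called in at least 1 contrast. The lack of a call in these 5 models therefore depended on the fit.

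The 4 models that were not tested were all below 0.55 FPKM in every library. The 742-residue Rab-type model on scaffold 714, the longest of the set, had 0.396 to 0.545 FPKM in kidney and at most 0.216 elsewhere. The 219-residue Rab-type model on scaffold 595 reached 0.326 FPKM in 1 liver library. The remaining models were the 2 low Ran-type models above.

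Many of the models are close relatives, and how reads shared between relatives were assigned is not given in the sources used here, so that their single levels are uncertain to that extent. With at least 70% protein identity over at least 80% of the shorter protein, 14 pairs with both members tested were found, which involve 22 models and share members among each other. In 7 of the 14 pairs the highest mean was in different tissues, and in 7 it was in the same tissue. The matching split over the other pairs of tested models was not counted. The difference of log2(FPKM + 1) between the members of a pair was then taken within each library, since a factor common to a library nearly cancels there when both levels are well above 1 FPKM.

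Between heart and kidney the 3 values of one tissue did not overlap with those of the other in 14 of 14 close pairs, and in 67.9% of the 689 other pairs of tested models. Between heart and liver this held for 8 of the 14 (64.4% of the other pairs) and between liver and kidney for 8 (61.1%). The pair on scaffolds 313 and 47 passed the filter through kidney alone. Without it, and with other pairs limited in the same way to models above 0.5 FPKM in over 1 tissue, these counts were 13 of 13 (66.6% of 452 other pairs), 8 (60.8%) and 7 (56.6%). With 3 against 3 libraries the smallest two-sided exact permutation p is 0.1, and adjusted over the 42 comparisons of the close pairs no value was below 0.14.

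The Rab-type models on scaffolds 1048 and 230, 89.2% identical, differed by 4.65, 4.32 and 4.26 in heart, 4.58, 3.95 and 4.82 in liver, and 2.52, 1.45 and 2.22 in kidney (log2, the former minus the latter). The kidney values lay below all others, and the mean difference between heart and kidney was 2.35 (exact permutation p = 0.1). The member on scaffold 1048 remained the higher of the pair in every library. As deposited it was elevated in liver and the other in kidney, but the kidney elevation was lost under both other scalings. The model on scaffold 230 was below 1 FPKM in heart, where a library factor does not nearly cancel.

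The heart-elevated Rab-type model on scaffold 1013 and that on scaffold 703, 93.3% identical, differed by 1.16, 1.56 and 1.31 in heart and by 0.30, 0.01 and 0.04 in kidney. Their levels were therefore close in kidney and apart in heart, with no overlap between these tissues. The kidney-elevated model on scaffold 488 and the heart-elevated one on scaffold 392, 85.6% identical, changed order, with differences of -1.46, -0.69 and -0.77 in heart and 1.31, 1.77 and 2.48 in kidney. The model that led in kidney, on scaffold 833, and its relative on scaffold 758, 70.3% identical, changed order likewise, from a mean difference of -1.80 ± 0.38 in heart to 1.16 ± 0.23 in kidney (SD, n = 3 each).

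**Figure D5:**
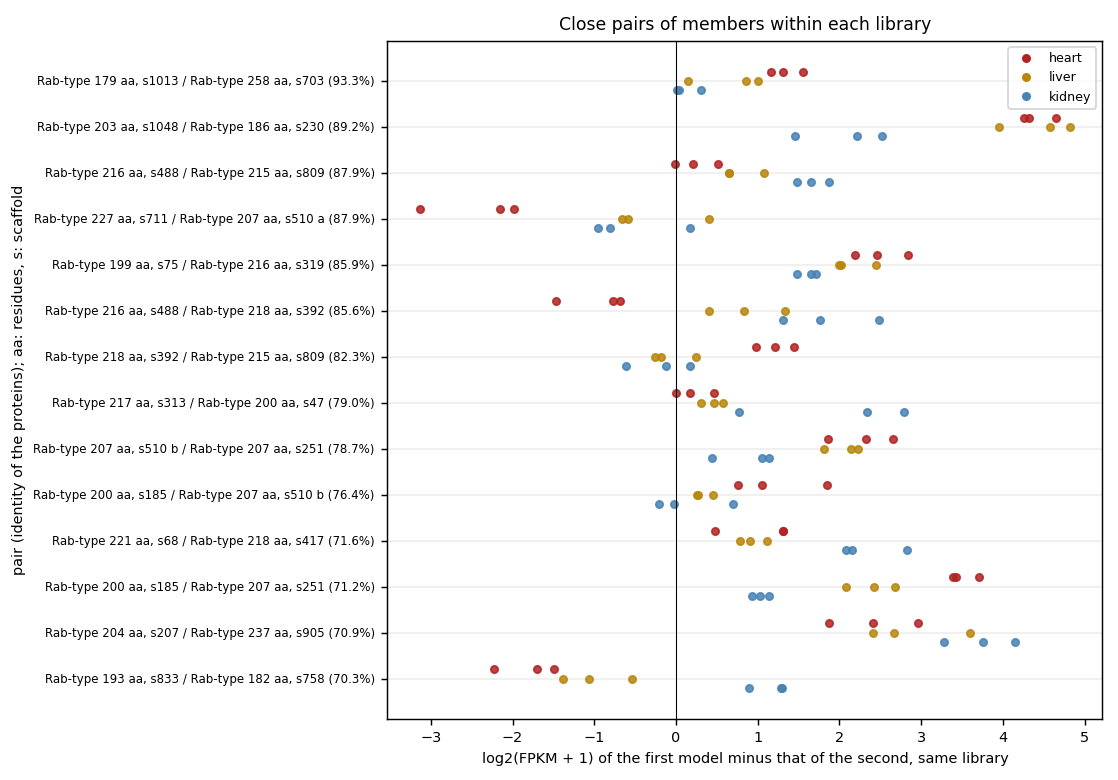
Difference of log2(FPKM + 1) between the members of each of 14 close pairs within the same library, by protein identity from top to bottom. Each point is 1 of 9 libraries coloured by tissue, and points right of the line mean that the model named first is the higher. The heart and kidney points do not overlap in any of the 14 pairs, which share members, nor in 67.9% of the 689 other pairs of tested models. Heart and liver do not overlap in 8 of the 14 (64.4% of the other pairs), and liver and kidney in 8 (61.1%).

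The 6 goat models with LDTAGQE, the form of Ras itself, were all tested and are given for comparison. As deposited, all 6 were higher in kidney than in liver (51.6% of all genes), 4 were higher in kidney than in heart (45.3%) and 1 higher in heart (17.9%), and 2 were higher in heart than in liver (29.6%). With median ratio scaling 2 were higher in kidney than in liver (25.3%), 1 was higher in kidney than in heart (29.1%) and 2 were higher in heart (29.0%). Their median log2 fold change of liver against kidney was -1.08 as deposited and -0.31 after median ratio scaling, against -0.82 and -0.23 for the 38 models with tryptophan. The model higher in heart than in kidney as deposited, of 209 residues, had 14.5, 15.9 and 15.6 FPKM in heart, 0.971, 3.78 and 4.28 in liver, and 5.86, 9.88 and 7.75 in kidney. Its call against kidney held in the fits without liver replicate 1 or 3 and was lost without any other 1 library.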

How the data were processed

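Strand-specific libraries were prepared with dUTP and sequenced by the authors. Per the study's methods, reads were mapped with TopHat to the goat assembly CHIR_1.0 and quantified with Cufflinks 2.2.1 as FPKM, and the authors deposited the values as log2(FPKM + 1). The labels' processing notes name the build UMD3.1 for the goat libraries too. The deposited log2 values were turned back into FPKM. Columns for heart were matched to samples through their tissue and replicate number. Among the goat columns only these differed from the sample description, in the tissue word. The paper states that the goat heart libraries also stand under other sample records, as duplicates of the same samples. Whether they were prepared or sequenced apart from the other goat libraries is not given there.

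Members were found in the deposited goat proteins by the motif WDTAGQE. Of the 51 models with the motif, 9 are not reported here and enter none of the counts. The members and lists were chosen with earlier results of these data known, and the types, tail classes, close pairs and their within-library ratios were added after the files were seen. Proteins were aligned with Biopython 1.88. limma 3.58.1 (R 4.3.3) was fitted to the 9 goat libraries with one mean per tissue and a trended prior, over the 13634 genes above 0.5 FPKM in at least 3 libraries. A gene was called at a Benjamini-Hochberg adjusted p under 0.05 over all tested genes of a contrast. SE is that of limma. Log2 fold changes are differences of log2(FPKM + 1), so for models near or below 1 FPKM they are smaller than the ratio of the FPKM values. The script was tested on simulated data.

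Named models are those elevated in 1 tissue (up to 10 by the smaller of their 2 log2 fold changes), the 8 of highest mean level, those not tested and those never called, with 2 identifiers per tissue. Lists by gene symbol (roles, regulators, Ras family and tissue markers) are not analysed here, as no table paired the identifiers with symbols. Replicate numbers may pair the samples: deviations from the tissue means correlated in 9 of 9 same-numbered pairs across tissues (r 0.146 to 0.472). The 18 differently numbered pairs had r of -0.417 to 0.134. Deviations within a tissue sum to 0, so these sets of pairs are not independent. Fits other than that with the replicate block did not use the pairing. The methods state that the tissues came from the same 3 animals, while the labels do not tie numbers to animals. Alternatives were median ratio scaling, quantile normalization, a pseudocount of 0.1, no filter, the study's filter, a replicate block, a minimum log2 fold change of 1, and leaving out each library. The count of close pairs without models above 0.5 FPKM in 1 tissue alone was added after the data were seen.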

Additional observations from a re-analysis of the deposited data

How the results depend on the processing

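Of the 70 calls over the 3 contrasts, 48 were kept after median ratio scaling, 13 lost their call and 9 changed sign. After quantile normalization these numbers were 55, 13 and 2. All calls of the 7 models above 0.5 FPKM in 1 tissue alone were among those kept under both. Those models could be tested only because they were high there. The share of calls kept over all tested genes was not counted. With a pseudocount of 0.1 in place of 1, 68 were kept, with no filter on low values 67, and with the replicate block, which pairs same-numbered libraries, all 70. In the blocked fit 18 models differed between heart and liver (7708 of 13634 genes), 28 between heart and kidney (9449) and 33 between liver and kidney (9671). Elevated in heart, liver and kidney were 6, 3 and 21 models (2158, 1440 and 5249 genes). The changes of sign concerned differences from kidney that became small and were called in neither direction. After median ratio scaling, liver against kidney was 0.19 on scaffold 267, 0.32 on 392, 0.18 on 962, 0.20 on 809, 0.015 on 319, 0.23 on 703 and 0.16 on 692, and heart against kidney was 0.024 on 703 and 0.14 on 692. After quantile normalization the model on scaffold 692 had 0.17 for heart against kidney and 0.035 for liver against kidney. Elevated in kidney were 9 models after median ratio scaling (16.6% of all genes) and 13 after quantile normalization (19.4%). With a minimum log2 fold change of 1, 14 models differed between heart and kidney (6320 of 13634 genes). Elevated were 2 in heart (1445 genes) and 11 in kidney (3016), as fewer differences reach that size. With the study's filter, which left 28 models and 10180 genes, 9 models differed between heart and liver (4860 genes). In that fit 3 were elevated in heart (1298 genes) and 1 in liver (626), as fewer models were tested. Without the highest genes the share of the models was 0.220% in heart and 0.203% in liver. When each library was left out in turn, 9 to 15 models were called for heart against liver (5422 to 6980 genes). For heart against kidney they were 16 to 26 (7135 to 9030 genes), and for liver against kidney 22 to 31 (7280 to 8780). Between 1 and 4 models were elevated in heart (1465 to 1984 genes), 1 to 3 in liver (909 to 1255) and 11 to 20 in kidney (3430 to 4878). These fits tested 13055 to 13304 genes. With any 1 library left out, 3 to 11 of the 70 calls were no longer past the threshold, and a further 2 to 8 could no longer be tested because the model failed the filter, which together made 8 (without liver replicate 3) to 19 (without kidney replicate 2). The number called in no contrast was 1 with the replicate block in place of 5. Unknown depth limits what can be said of models below 1 FPKM, and 3 libraries per tissue limit the pair comparisons to an exact p of 0.1.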
